A study of Mus musculus with 3 samples.

Results

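Glycoproteins on T cells end in sialic acids, and 6 sialyltransferase genes, St3gal1, St3gal2, St3gal4, St3gal6, St6gal1 and St8sia4, were described together with Gcnt1, the gene of the enzyme that starts core 2 branches on O-glycans. The genes were chosen with their behaviour on these arrays known, so their differences are a description and no test was made of them. They were found as all probe sets whose platform annotation gives 1 of these symbols alone, with older symbols matched through the Entrez identifier. This gave 7 of 18194 named genes and 17 of 45101 probe sets, and no probe set named one of the 7 genes beside another gene.

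Sialyltransferases sit in the Golgi and place sialic acid, carried by CMP, on the ends of glycan chains. ST3Gal-I caps core 1 O-glycans and so competes with core 2 branching by GCNT1, ST3Gal-IV and ST3Gal-VI cap lactosamine chains that can become selectin ligands, ST6Gal-I caps N-glycans, and ST8Sia-IV builds polysialic acid. In T cells the balance between sialylated core 1 and core 2 O-glycans on carriers such as CD43 and CD45 is known to shift on activation, and core 2 chains on PSGL-1 are part of the ligand of P-selectin.

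The study measured total RNA of mouse CD8 T cells from the tissue labelled MLN, with 1 array in each of 3 groups. The VILLIN-HA/CL4-TCR group and the Villin-HA + CL4-TCR group combine CL4-TCR T cells, which carry a transgenic T cell receptor for hemagglutinin (HA) of influenza virus, with HA under the villin promoter, which is active in gut epithelium, and the CL4-TCR group holds T cells of the receptor transgenic alone. All 3 groups thus share the receptor transgene. The names of the HA groups differ in a slash for VILLIN-HA/CL4-TCR and a plus sign for Villin-HA + CL4-TCR. The slash reads as mice carrying both transgenes, and the plus sign as CL4-TCR cells put together with Villin-HA mice. This is a reading of the names only. The labels list an activated and a regulatory population formed in the animal without saying which HA array is which, and they give no age, strain, pooling of animals or sort. From knowledge of the study, and not from its labels, the suppressive population was taken from mice carrying both transgenes.

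Values are MAS5 signals, a linear intensity per probe set with every array scaled to 1 trimmed mean. Values under the floor, a signal of 31.7 that is the median of all values, were raised to it before a log2 difference, the first named group minus the second, was taken. A comparison of a gene counted as measured when at least the higher signal exceeded that floor, and "higher" and "lower" stand for a log2 difference of at least 1 in size, which is 2-fold. A fold against a value at the floor is a lower bound, written as at least that fold. With 1 array a group there is no replicate spread, no p-value and no SD between samples, and precision is limited by how few arrays there are. The only error available is the disagreement between probe sets of 1 gene, whose pooled SD on the log2 scale was 0.43 for VILLIN-HA/CL4-TCR relative to CL4-TCR, 0.65 for Villin-HA + CL4-TCR relative to CL4-TCR and 0.61 for VILLIN-HA/CL4-TCR relative to Villin-HA + CL4-TCR. In total RNA of a population, fewer cells of a type and less RNA per cell cannot be told apart.

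The arrays also differed in ways that touch every result below. The 10 CD8 T cell markers found were above the floor on each array, with summed signals of 17755 in VILLIN-HA/CL4-TCR cells, 18051 in Villin-HA + CL4-TCR cells and 19025 in CL4-TCR cells. The 3 CD4 T cell markers summed to 51.6, 46.6 and 74 in the same order, with 0, 0 and 1 above the floor. Cd4 lay under it on all arrays, and Zbtb7b was above it in CL4-TCR cells, at 60.9. The 7 gut epithelium markers summed to 126.3, 212.5 and 194.4 in the same order, with 1, 4 and 2 above the floor. Vil1 was under it on all arrays and Epcam above it on all. The 7 skeletal muscle markers summed to 174, 5286 and 156 in the same order, with 3, 7 and 1 of them above the floor. The 6 neutrophil markers summed to 107, 1731 and 85.5 (1, 5 and 0 above the floor), the 9 stromal and endothelial markers to 138, 1017 and 162 (0, 8 and 1) and the 12 myeloid markers to 1561, 1202 and 291 (7, 7 and 4). The 5 plasma cell markers summed to 380, 330 and 175 (3, 2 and 3) and the 3 NK cell markers to 97.8, 150 and 38.2 (1 each). Gapdh control probe sets had ratios of the 3′ to the 5′ end of 46.2, 3.35 and 18.4. Those of the Actb control were closer to each other, at 2.46, 1.80 and 1.98. Xist, made by female cells, had signals of 2.5, 1339 and 5442.5. Eif2s3y, a gene of the Y chromosome, had 1496, 746.9 and 13.4, so the Villin-HA + CL4-TCR array held signal of both genes. The part of other cells and of RNA quality in the results was not tested, and the sex of the mice and the group cannot be told apart.

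Of the 7 genes, St3gal6 and St6gal1 were the 2 counted as lower in a comparison with CL4-TCR. Both lie on chromosome 16 of GRCm38.p6, St3gal6 at chr16:58469742-58524260 and St6gal1 at chr16:23224729-23360350. The other genes lie at chr15:67102875-67176946 (St3gal1), chr8:110919743-110974058 (St3gal2), chr9:35046576-35116864 (St3gal4), chr1:95587682-95667717 (St8sia4) and chr19:17326141-17372844 (Gcnt1). Their RefSeq start windows, 250 bases before to 50 after each annotated start, are shown because these are the genes with the lower signals, and to let a reader see which letters of T cell transcription factors they hold. Capitals mark matches on either strand to TGANTCA (AP-1), GGAAAA (the core bound by NFAT), CCACCC (Kruppel-like factors) and CTTTGA (TCF/LEF), whose matches can touch or overlap.
St3gal6 window 1, chr16:58524204-58524503, minus strand: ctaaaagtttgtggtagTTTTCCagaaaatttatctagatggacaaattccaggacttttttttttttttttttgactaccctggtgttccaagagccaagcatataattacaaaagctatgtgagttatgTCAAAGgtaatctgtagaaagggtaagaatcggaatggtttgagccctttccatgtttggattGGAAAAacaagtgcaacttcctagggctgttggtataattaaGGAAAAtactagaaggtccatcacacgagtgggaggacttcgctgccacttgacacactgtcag
St3gal6 window 2, chr16:58523377-58523676, minus strand: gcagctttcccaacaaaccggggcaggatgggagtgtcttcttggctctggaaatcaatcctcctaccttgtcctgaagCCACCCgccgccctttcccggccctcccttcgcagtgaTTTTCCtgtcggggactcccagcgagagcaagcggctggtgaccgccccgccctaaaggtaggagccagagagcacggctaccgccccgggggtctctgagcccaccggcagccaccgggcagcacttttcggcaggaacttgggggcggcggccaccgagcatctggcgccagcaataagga
St6gal1 window 1, chr16:23224490-23224789, plus strand: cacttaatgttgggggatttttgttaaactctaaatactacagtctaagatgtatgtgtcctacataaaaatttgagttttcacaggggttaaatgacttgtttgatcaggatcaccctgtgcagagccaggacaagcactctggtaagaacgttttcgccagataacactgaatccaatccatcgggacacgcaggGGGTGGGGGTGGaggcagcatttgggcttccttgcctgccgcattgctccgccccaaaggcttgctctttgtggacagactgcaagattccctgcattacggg
St6gal1 window 2, chr16:23225771-23226070, plus strand: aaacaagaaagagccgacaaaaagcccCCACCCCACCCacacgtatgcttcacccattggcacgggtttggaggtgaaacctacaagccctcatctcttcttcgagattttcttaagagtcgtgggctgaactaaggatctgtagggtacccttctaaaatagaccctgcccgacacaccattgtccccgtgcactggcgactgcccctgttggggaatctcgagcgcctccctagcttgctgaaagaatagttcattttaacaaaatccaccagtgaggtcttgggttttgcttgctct
St6gal1 window 3, chr16:23290220-23290519, plus strand: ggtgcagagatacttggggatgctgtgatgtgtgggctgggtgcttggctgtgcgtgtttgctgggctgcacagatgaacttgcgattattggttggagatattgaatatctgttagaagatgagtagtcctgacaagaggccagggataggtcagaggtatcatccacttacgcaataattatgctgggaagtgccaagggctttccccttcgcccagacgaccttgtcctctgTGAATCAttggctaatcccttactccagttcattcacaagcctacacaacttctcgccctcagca

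The upstream St3gal6 window held 3 NFAT core matches and 1 TCF/LEF match at a GC content of 38.7%, and its downstream window 1 NFAT core and 1 Kruppel-like match at 64.7%. The 3 St6gal1 windows held 2, 2 and 0 Kruppel-like matches, which touched in window 1 and overlapped in window 2, and the most downstream one held the 1 AP-1 match. Among 32851 windows of the same length in the table, 23.4% held the NFAT core, 31.5% the Kruppel-like letters, 7.81% the AP-1 letters, and 5257 windows the TCF/LEF letters. Start windows were found for 5 of the 7 genes, with 10 windows in all, and those of St8sia4, St3gal4 and Gcnt1 had 1, 0 and 4 Kruppel-like matches over their windows. Window 1 of Gcnt1 also held 1 NFAT core match, so these letters were not particular to St3gal6. The St8sia4 and St3gal4 windows held no NFAT core, and no window of these genes held the AP-1 or TCF/LEF letters. The St3gal4 window was the richest in GC of the 10, at 74%. The matches are letters in these windows, and no binding was measured.

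St3gal6 encodes ST3Gal-VI, which puts sialic acid on lactosamine chains of glycoproteins and glycolipids. Its probe set with the highest mean, 1449078_at, had signals of 36.5 in VILLIN-HA/CL4-TCR cells, 136.6 in Villin-HA + CL4-TCR cells and 310.3 in CL4-TCR cells. It was thus lowest in VILLIN-HA/CL4-TCR cells, just above the floor, and highest without HA. The log2 difference was -3.09 for VILLIN-HA/CL4-TCR relative to CL4-TCR, the 6th lowest of 11260 measured genes, and -1.18 for Villin-HA + CL4-TCR relative to CL4-TCR, the 811th lowest of 12196. Both comparisons use the same CL4-TCR array. Between the HA arrays, VILLIN-HA/CL4-TCR relative to Villin-HA + CL4-TCR, it was -1.90, a fold of 3.74.

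The order of the arrays was the same in 4 of the 5 St3gal6 probe sets. Probe set 1449079_s_at had signals of 43.6, 96.9 and 167.4 in VILLIN-HA/CL4-TCR cells, Villin-HA + CL4-TCR cells and CL4-TCR cells, and 1447841_x_at had 30.7, 73.4 and 124.3. Their differences from CL4-TCR were -1.94 and at least 1.97 in size in VILLIN-HA/CL4-TCR cells, both past 2-fold, and -0.79 and -0.76 in Villin-HA + CL4-TCR cells, both short of it. Probe set 1454246_at was above the floor in CL4-TCR cells alone, at 1.5, 24.6 and 41.3, and 1443740_at lay between 0.9 and 1.6 on all 3. The lower St3gal6 signal was therefore counted by 3 probe sets for VILLIN-HA/CL4-TCR relative to CL4-TCR and by 1 for Villin-HA + CL4-TCR relative to CL4-TCR. The 3 brighter probe sets read the same RNA, and the names of 1449079_s_at and 1447841_x_at mark probes that can match other transcripts, so they are not replicates. St3gal6 ordered the arrays as Xist did, and in reverse of Eif2s3y. With 3 arrays few orders are possible, so nothing is read from the shared order, and the part of sex was not tested.

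St6gal1 encodes ST6Gal-I, whose alpha-linked sialic acid on N-glycans is the ligand of CD22 on B cells. Its bright probe set, 1420928_at, had signals of 3876 in VILLIN-HA/CL4-TCR cells, 1655 in Villin-HA + CL4-TCR cells and 5097 in CL4-TCR cells. The Villin-HA + CL4-TCR array stood apart as the lowest, with a log2 difference from CL4-TCR of -1.62, the 331st lowest of 12196 genes. The VILLIN-HA/CL4-TCR array had a difference from CL4-TCR of -0.39, less than the spread of probe sets, and was 2.34-fold above Villin-HA + CL4-TCR cells. The other probe set, 1420927_at, was at 11.6, 40.7 and 31.7, near or under the floor, and did not show this order. B cell markers summed to 470, 420 and 310 in VILLIN-HA/CL4-TCR cells, Villin-HA + CL4-TCR cells and CL4-TCR cells, with 3, 3 and 4 of the 7 found above the floor and Cd79a under it on each. Their part in the St6gal1 values was not tested.

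**Figure D1:**
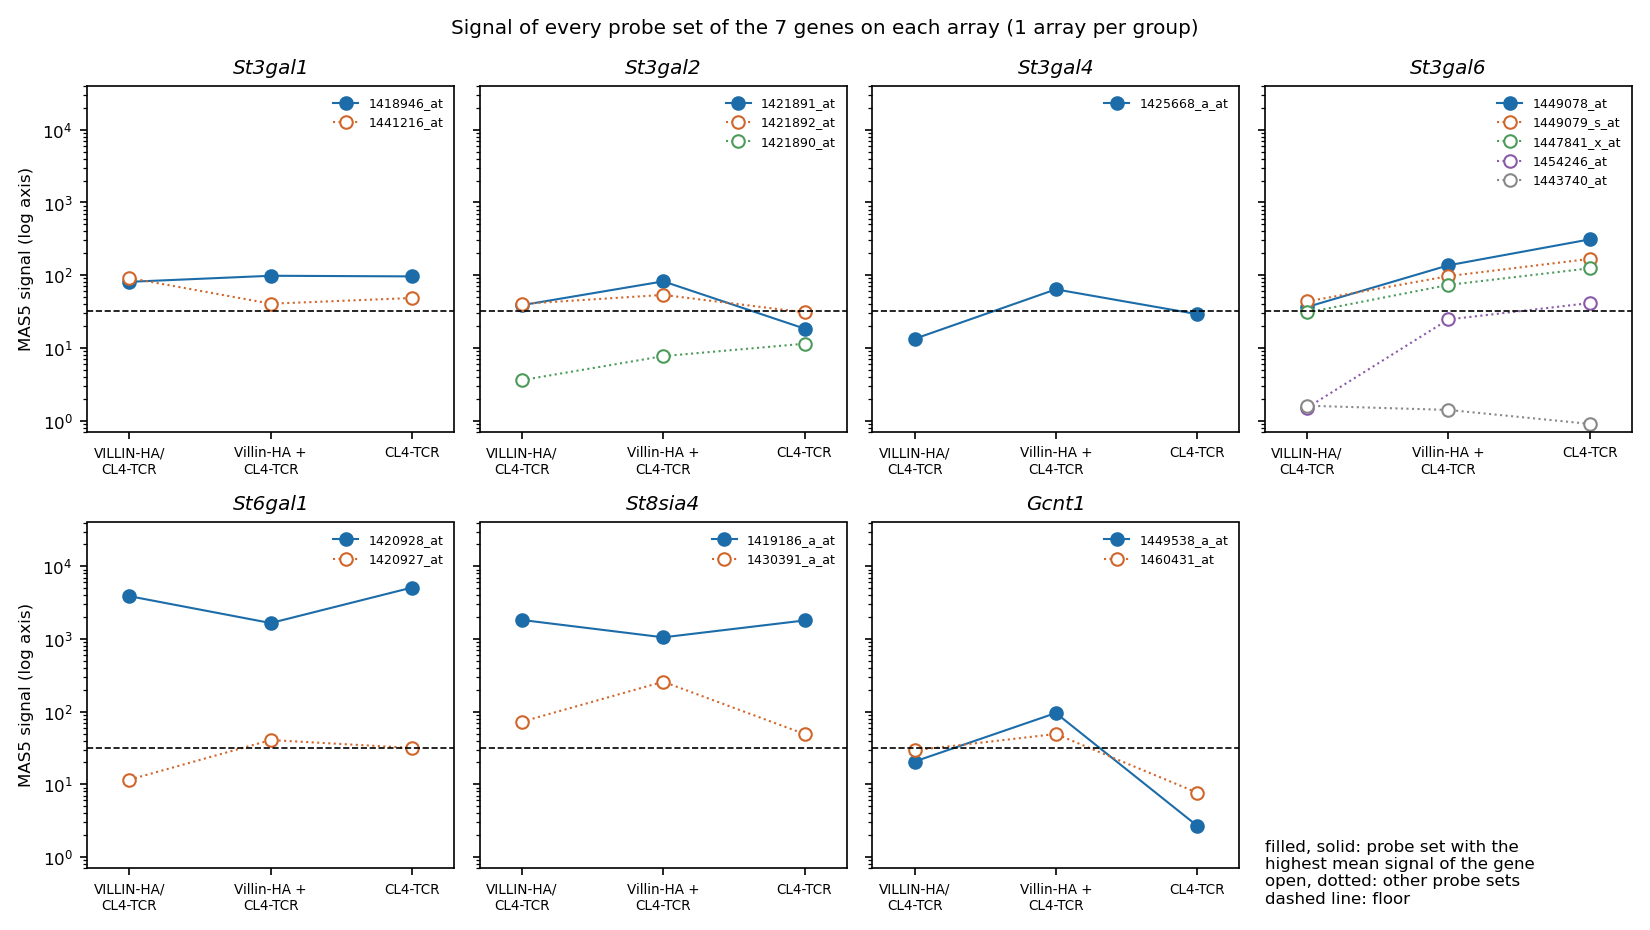
MAS5 signal on a log axis for each of the 17 probe sets of the 7 genes in VILLIN-HA/CL4-TCR cells, Villin-HA + CL4-TCR cells and CL4-TCR cells, with lines joining the values of 1 probe set and a dashed line at the floor of 31.7. The 3 brighter St3gal6 probe sets are lowest in VILLIN-HA/CL4-TCR cells, the bright St6gal1 probe set dips to 1655 in Villin-HA + CL4-TCR cells, and the St8sia4 probe sets bend opposite ways there.

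St8sia4 encodes a polysialyltransferase whose product is carried by NCAM, neuropilin 2 and CCR7. Its bright probe set, 1419186_a_at, had signals of 1825 in VILLIN-HA/CL4-TCR cells, 1053 in Villin-HA + CL4-TCR cells and 1797 in CL4-TCR cells. The log2 differences from CL4-TCR were 0.02 and -0.77, neither past 2-fold. A second probe set, 1430391_a_at, built on another transcript record, had signals of 72.8, 258 and 49.3 in the same order and was highest where the first was lowest. Its differences from CL4-TCR were 0.56 in VILLIN-HA/CL4-TCR cells and 2.39 in Villin-HA + CL4-TCR cells, a fold of 5.23. The probe sets of St8sia4 thus disagreed in direction in Villin-HA + CL4-TCR cells by more than the pooled SD of 0.65, and no direction is given for the gene there.

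St3gal1, which caps core 1 O-glycans, was close to level by its brighter probe set, 1418946_at, with signals of 81.0 in VILLIN-HA/CL4-TCR cells, 98.1 in Villin-HA + CL4-TCR cells and 96.2 in CL4-TCR cells. Its differences from CL4-TCR were -0.25 and 0.03, smaller than the spread of probe sets. The other probe set, 1441216_at, had 91.4, 40.5 and 48.5, highest in VILLIN-HA/CL4-TCR cells. That made it 2.26-fold higher there than in Villin-HA + CL4-TCR cells, against -0.28 on the log2 scale by the first, so the St3gal1 probe sets also disagreed.

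Gcnt1 encodes the core 2 enzyme that adds a GlcNAc branch to core 1. Its signals by 1449538_a_at were 20.6 in VILLIN-HA/CL4-TCR cells, 95.8 in Villin-HA + CL4-TCR cells and 2.7 in CL4-TCR cells. The Villin-HA + CL4-TCR array was the only one above the floor. Gcnt1 was at least 3.02-fold higher there than on either other array, and no fold was taken between VILLIN-HA/CL4-TCR and CL4-TCR. The second probe set, 1460431_at, gave the same order at 29.4, 49.3 and 7.7, with a difference of at least 0.64 on the log2 scale.

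St3gal2, which sialylates core 1 chains and glycolipids, and St3gal4, a partner of St3gal6 in capping lactosamine, were also highest in Villin-HA + CL4-TCR cells. St3gal2 had signals of 38.7, 82.2 and 18.4 by 1421891_at in VILLIN-HA/CL4-TCR cells, Villin-HA + CL4-TCR cells and CL4-TCR cells, and 40.3, 53.5 and 30.8 by 1421892_at. The difference of Villin-HA + CL4-TCR from CL4-TCR was at least 1.37 by the first, past 2-fold, and at least 0.76 by the second. Another probe set, 1421890_at, stayed between 3.6 and 11.4. St3gal4 had 1 probe set, 1425668_a_at, with signals of 13.3, 63.8 and 29.1, and was at least 2.01-fold higher in Villin-HA + CL4-TCR cells than in CL4-TCR cells, at the edge of the fold counted.

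**Figure D2:**
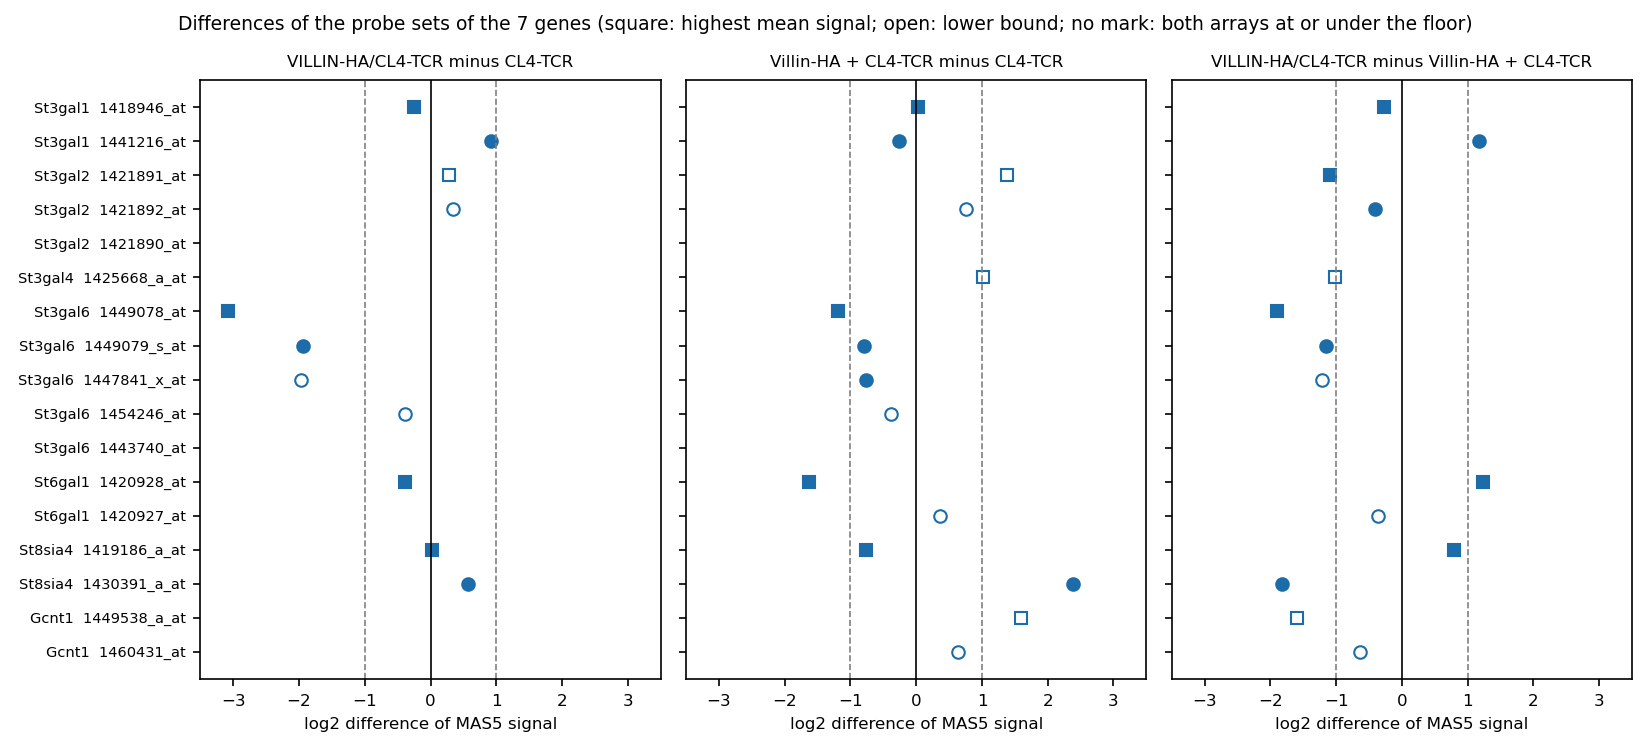
Log2 difference of MAS5 signal for each probe set of the 7 genes in the 3 comparisons, with dashed lines at a fold of 2, squares for the probe set with the highest mean and open marks for lower bounds. St3gal6 lies left of the line at -1 with 3 probe sets in VILLIN-HA/CL4-TCR relative to CL4-TCR, and the 2 St8sia4 probe sets lie at -0.77 and 2.39 in Villin-HA + CL4-TCR relative to CL4-TCR.

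With 1 probe set a gene, the brightest, 5 of the 7 genes were measured in VILLIN-HA/CL4-TCR relative to CL4-TCR, 0 were higher and 1 was lower, beside 7.43% of all measured genes higher and 6.63% lower, 14.1% together. Their median log2 difference was -0.25, and that of all genes -0.04. In Villin-HA + CL4-TCR relative to CL4-TCR all 7 were measured, 3 were higher and 2 lower, beside 11.9% and 9.53% of all genes, 21.4% together, with medians of 0.03 and 0.06. In VILLIN-HA/CL4-TCR relative to Villin-HA + CL4-TCR 1 was higher and 4 were lower, beside 6.13% and 8.95%, 15.1% together, with medians of -1.01 and -0.06. The choice of the genes used these contrasts, so nothing is read from the counts.

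The 3 genes counted as higher in Villin-HA + CL4-TCR cells, St3gal2, St3gal4 and Gcnt1, had mean signals of 46.4, 35.4 and 39.7 over the arrays. All measured genes with a mean under 100 were higher on that array than in CL4-TCR cells in 12.6% of 4732 cases and lower in 5.26%, whereas of 2964 genes with a mean of 500 or more, 9.51% were higher and 10.4% lower. The median signal of all probe sets was 29.4 in VILLIN-HA/CL4-TCR cells, 35.3 in Villin-HA + CL4-TCR cells and 30.6 in CL4-TCR cells. With the floor at a signal of 68.6, the 65th percentile, 0 of the 7 genes were higher in Villin-HA + CL4-TCR cells, and St3gal2 and Gcnt1 had differences of at least 0.26 and 0.48. That floor fixed the result for the 3 genes. Their signals there of 82.2 (St3gal2), 63.8 (St3gal4) and 95.8 (Gcnt1) cannot be 2-fold above it.

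**Figure D3:**
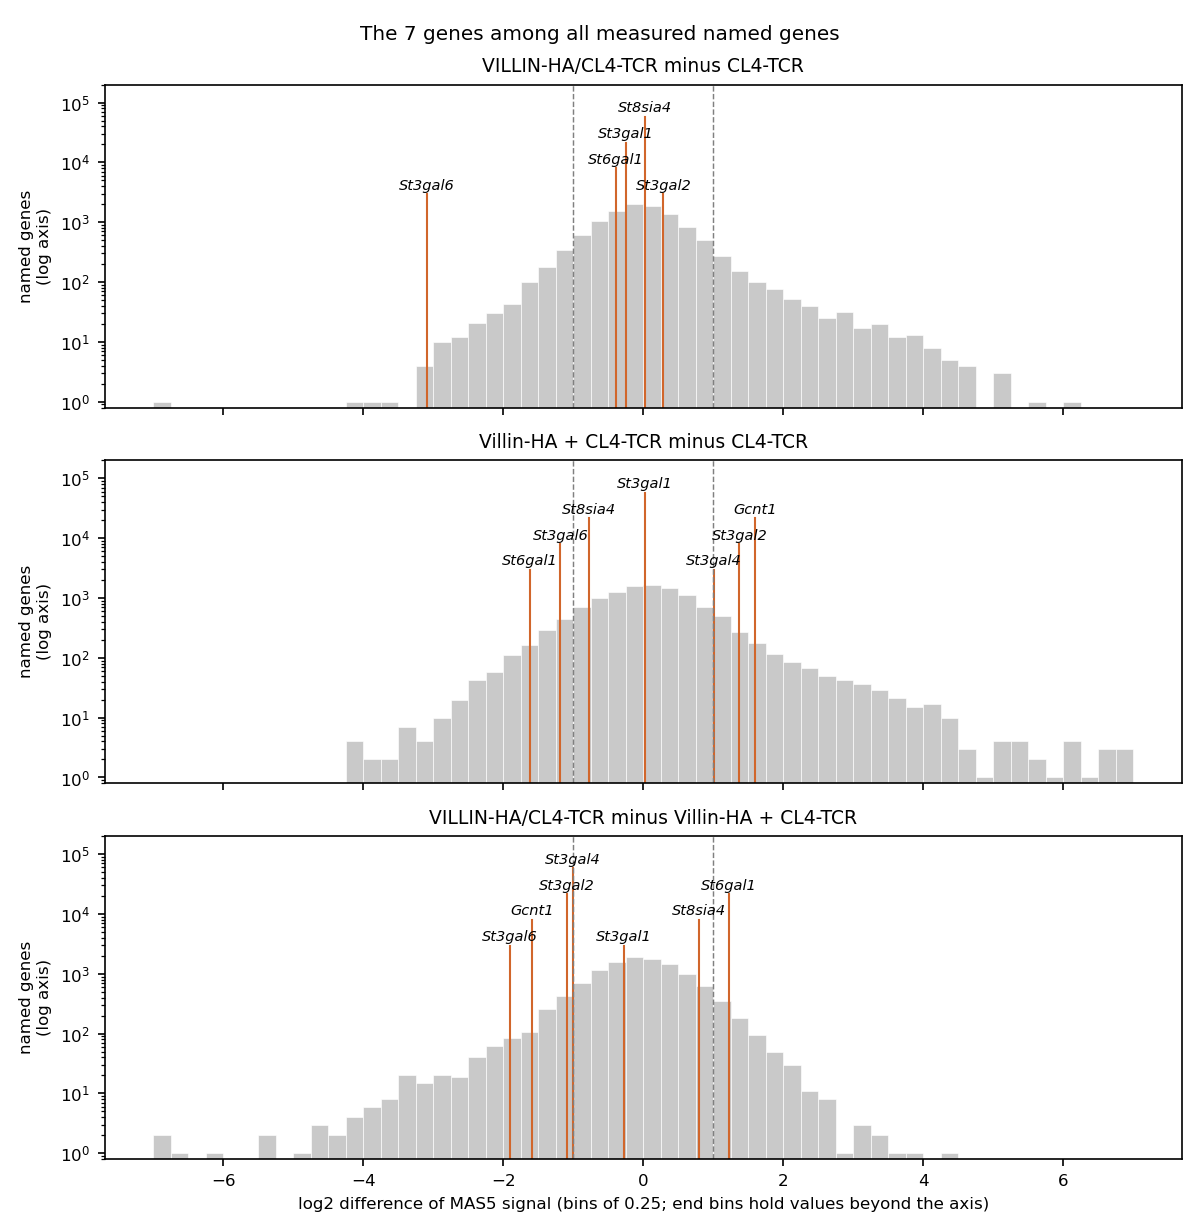
Histograms of the log2 difference of all measured named genes (log axis of counts) in the 3 comparisons, with orange lines at the values of the 7 genes by their brightest probe set and dashed lines at a fold of 2. St3gal6 at -3.09 stands in the far left tail of VILLIN-HA/CL4-TCR relative to CL4-TCR, and the other measured genes of the 7 lie between -0.39 and 0.29 there.

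Across the rest of the pathway, lists of 99 genes in 7 groups gave 95 named on the arrays. In VILLIN-HA/CL4-TCR relative to CL4-TCR, 7 of 66 measured were higher (10.6%) and 5 lower (7.58%), and in Villin-HA + CL4-TCR relative to CL4-TCR, 5 of 72 were higher (6.94%) and 7 lower (9.72%), shares of the same order as those of all genes. Between the HA groups, VILLIN-HA/CL4-TCR relative to Villin-HA + CL4-TCR, 4 of 70 were higher and 5 lower, beside 6.13% and 8.95% of all genes. The small counts of single lists below stand beside the same shares of all genes, and nothing is read from them. Against CL4-TCR these shares were 7.43% higher and 6.63% lower in VILLIN-HA/CL4-TCR cells, and 11.9% and 9.53% in Villin-HA + CL4-TCR cells. Of the 14 other sialyltransferases, St6galnac3, which adds a second sialic acid to sialylated O-glycans, was the 1 counted among 11 measured in each of the comparisons with CL4-TCR. Its signals were 65.8 in VILLIN-HA/CL4-TCR cells, 85.6 in Villin-HA + CL4-TCR cells and 31.3 in CL4-TCR cells. Another probe set had -0.08 against CL4-TCR in both, a lower bound in size since its signals on the HA arrays lay at or under the floor.

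Of the genes that make, move and remove sialic acid, 1 of 9 measured was higher and 1 lower in VILLIN-HA/CL4-TCR cells. In Villin-HA + CL4-TCR cells 2 of 9 were higher and 2 lower. Cmah, which hydroxylates CMP-Neu5Ac to the Neu5Gc form that mouse lymphocytes carry, had signals of 822.5 in VILLIN-HA/CL4-TCR cells, 608 in Villin-HA + CL4-TCR cells and 1867 in CL4-TCR cells. It was 2.27-fold and 3.07-fold lower on the HA arrays than in CL4-TCR cells, while its measured probe sets reached up to 0.02 and 0.81 on the log2 scale. Gne, the rate-limiting enzyme of synthesis, had 255.5, 184.7 and 376.1 and was 2.04-fold lower in Villin-HA + CL4-TCR cells than in CL4-TCR cells by this probe set. Neu3, a sialidase of the plasma membrane, was at least 2.25-fold and 2.13-fold higher on the HA arrays, at signals of 71.3 and 67.6 against 12.3. Renbp, an epimerase of N-acetylglucosamine, was at least 3.89-fold higher in Villin-HA + CL4-TCR cells, at 123.4 against 8.0 in CL4-TCR cells. Cmas, which activates sialic acid with CTP, and Slc35a1, the CMP-sialic acid transporter of the Golgi, had differences from CL4-TCR between -0.81 and 0.34, none past 2-fold.

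Among O-glycan genes, 2 of 17 measured were higher and 1 lower in VILLIN-HA/CL4-TCR cells, and 1 of 19 was higher and 3 were lower in Villin-HA + CL4-TCR cells. The core 1 synthase gene C1galt1 and its chaperone gene C1galt1c1 differed from CL4-TCR by 0.11 and 0.14 in VILLIN-HA/CL4-TCR cells and by 0.48 and 0.13 in Villin-HA + CL4-TCR cells. Their other measured probe sets lay below CL4-TCR, at -0.24 and -0.66 in VILLIN-HA/CL4-TCR cells and at -0.27 and -0.66 in Villin-HA + CL4-TCR cells. The -0.66 of C1galt1c1 is a lower bound in size, as its signals on the HA arrays lay at or under the floor. B3gnt2, which extends lactosamine chains, was 3.43-fold higher in VILLIN-HA/CL4-TCR cells, at 1778 against 518.6 in CL4-TCR cells. Galnt3, which starts O-glycans, was at least 2.32-fold higher in VILLIN-HA/CL4-TCR cells and at least 2.90-fold higher in Villin-HA + CL4-TCR cells, and its relative Galnt10 was 2.23-fold lower in VILLIN-HA/CL4-TCR cells. Galnt2, Galnt11 and B3gnt5, which starts a class of glycolipid chains, were 2.44-fold, 2.26-fold and 2.57-fold lower in Villin-HA + CL4-TCR cells. Another probe set of Galnt2 reached 0.24 on the log2 scale. Another of Galnt11 had -0.01, a lower bound in size because its signals on the HA arrays lay at or under the floor.

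Of the fucose and sulfate genes, 2 of 10 measured were lower in VILLIN-HA/CL4-TCR cells and 1 of 12 in Villin-HA + CL4-TCR cells, with 0 higher in either. Slc35c1, the GDP-fucose transporter, was 2.08-fold lower in VILLIN-HA/CL4-TCR cells and 3.94-fold lower in Villin-HA + CL4-TCR cells than in CL4-TCR cells. Tpst2, which sulfates tyrosines such as those of PSGL-1, was 2.93-fold lower in VILLIN-HA/CL4-TCR cells, at 271.1 against 794.5. Fut7, the fucosyltransferase that completes sialyl Lewis x, had signals of 6.0 in VILLIN-HA/CL4-TCR cells, 3.9 in Villin-HA + CL4-TCR cells and 4.4 in CL4-TCR cells, all under the floor, and Fut4 did not exceed 32.3. In the N-glycan list, 1 of 9 was higher and 1 lower in VILLIN-HA/CL4-TCR cells, and 0 were higher and 1 lower of 9 in Villin-HA + CL4-TCR cells. Mgat5, which makes the branch bound by galectins, was 2.34-fold higher in VILLIN-HA/CL4-TCR cells by its brightest probe set, with another at 0.24 on the log2 scale. Man2a2, a mannosidase of N-glycan trimming, was 2.38-fold lower in VILLIN-HA/CL4-TCR cells and 2.19-fold lower in Villin-HA + CL4-TCR cells, where another probe set had -0.51 on the log2 scale.

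Of the genes of carriers and selectins, 8 were measured in VILLIN-HA/CL4-TCR and 9 in Villin-HA + CL4-TCR cells against CL4-TCR. Spn, the gene of CD43, had signals of 2669 in VILLIN-HA/CL4-TCR cells, 2699 in Villin-HA + CL4-TCR cells and 2514 in CL4-TCR cells, and differed from CL4-TCR by 0.09 and 0.10 on the log2 scale. Its other measured probe set had -1.12 in VILLIN-HA/CL4-TCR cells, past 2-fold, and 0.77 in Villin-HA + CL4-TCR cells, so the Spn probe sets disagreed. Ptprc, the gene of CD45, differed by 0.04 and -0.01 by its brightest probe set and by -0.14 and -0.98 by the other measured one, and Selplg, the gene of PSGL-1, by -0.93 and -0.45. Cd44, an adhesion receptor that is high on antigen-experienced T cells, was the 1 carrier counted, 4.42-fold higher in VILLIN-HA/CL4-TCR cells and 3.81-fold higher in Villin-HA + CL4-TCR cells. Of the lectins that bind sialic acid, Cd22 was 2.46-fold higher in VILLIN-HA/CL4-TCR cells, at 178.9 against 72.7 in CL4-TCR cells, and Siglece lay under the floor on each array. Of 4 measured B cell markers in that comparison, 1 was higher, Ms4a1 at 147.2 against 55.8, and 0 were lower. Cd79b had 199.1 against 110.5 and Pax5 51.8 against 34.5, while Cr2 had 18.1 against 46.6 and Cd79a, under the floor on both, 13.1 against 31.4. Their part in the Cd22 values was not tested.

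**Figure D4:**
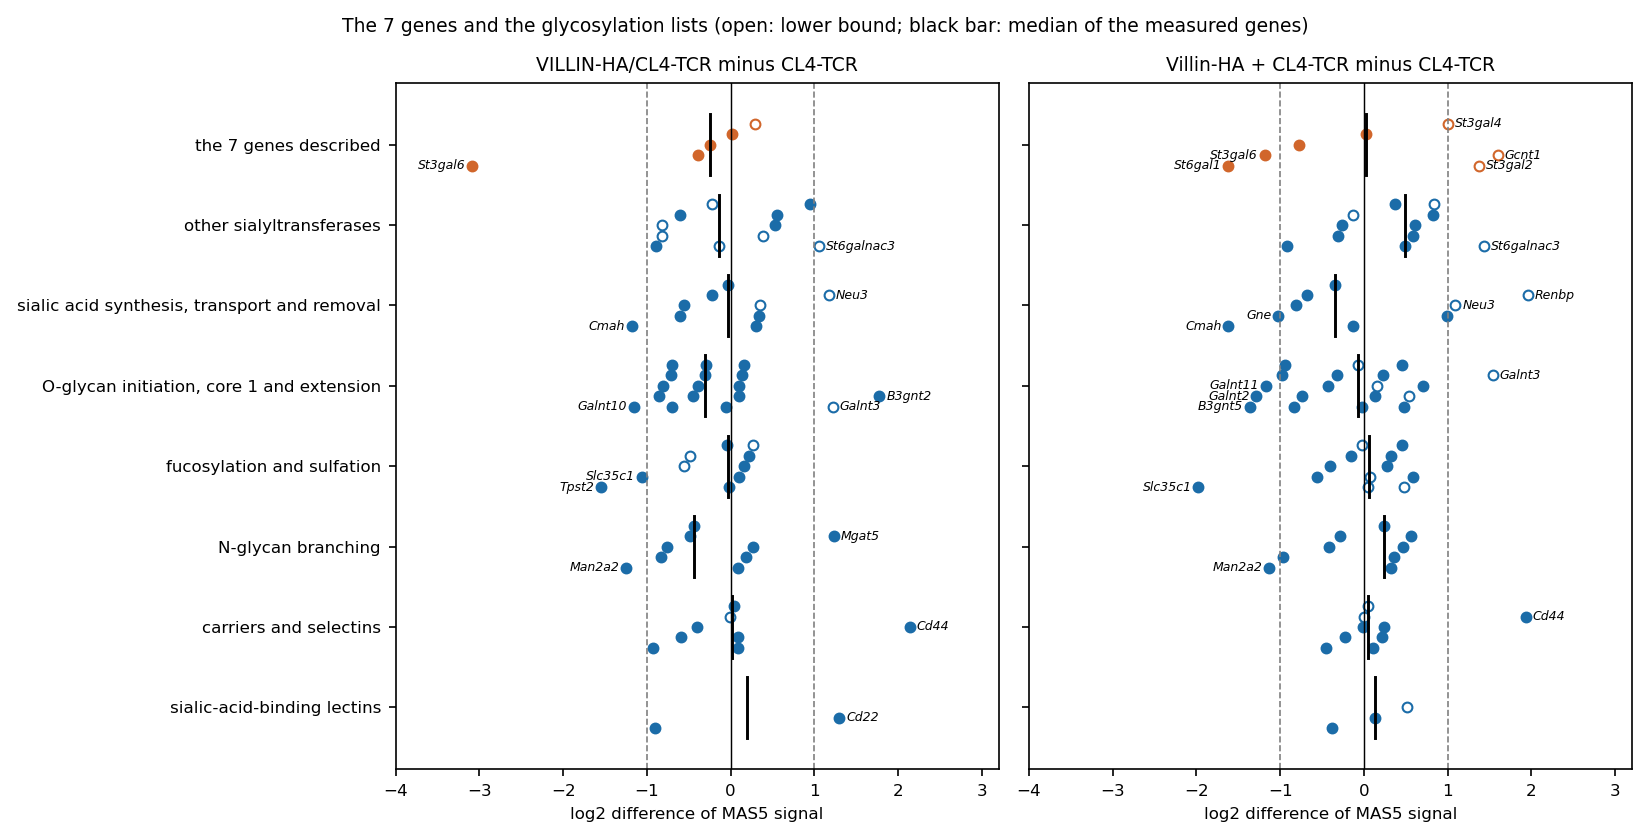
Log2 difference of MAS5 signal from CL4-TCR cells for the 7 genes (orange) and the measured genes of the 7 glycosylation lists (blue), for VILLIN-HA/CL4-TCR cells on the left and Villin-HA + CL4-TCR cells on the right, with open marks for lower bounds, black bars for list medians and names for genes past a fold of 2. St3gal6 at -3.09 is the lowest point on the left, and Cd44 is at 2.14 on the left and 1.93 on the right.

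The genes nearest to St3gal6 in the pair of log2 differences from CL4-TCR, by Euclidean distance among 9014 genes above the floor on all 3 arrays, were Cxcr4, App and Tent5a. Cxcr4, a chemokine receptor gene, had signals of 115.2 in VILLIN-HA/CL4-TCR cells, 454 in Villin-HA + CL4-TCR cells and 866.5 in CL4-TCR cells, at a distance of 0.31. App and Tent5a lay at 0.31 and 0.34, and no gene lay within 0.25. By the brightest probe set of each gene, St3gal1 had the highest positive difference of those of the 7 genes above the floor on all arrays. That difference was only 0.03, in Villin-HA + CL4-TCR relative to CL4-TCR, close to level. St3gal1 had 607 genes within 0.25, the nearest being 1700120C14Rik, Vrk2 and Pskh1. With 3 arrays the likeness rests on 2 differences that share an array.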

How the data were processed

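Total RNA of mouse CD8 T cells was hybridised to 3 one-colour arrays, 1 for each group, grouped by source name. The deposited intensity values are MAS5 signals, per the submitters' processing notes, which name no version, and its background settings were not given. The trimmed mean, with 2% cut at each end, was 150.0 on each array, so a change common to most genes is hidden.

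Of 45101 probe sets, 34958 had 1 gene symbol in the platform annotation (34754 updated through Entrez identifiers to the GRCm38.p6 RefSeq table), 932 had several and 9211 none. A gene was represented by its probe set with the highest mean. The 7 genes and the lists were chosen with earlier results of these data known. Named besides were the genes of each list counted against CL4-TCR, a set of enzymes and carriers whatever their values, and the nearest genes by profile. Start windows are from RefSeq, GRCm38.p6. Python 3.11.15, numpy 2.4.6 and pandas 2.3.3 were used, and the counting was tested on simulated data.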

Additional observations from a re-analysis of the deposited data

How the results depend on the processing

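Alternatives were another floor, log2(signal + 16), 2 other scalings and 3 other choices of probe set. In VILLIN-HA/CL4-TCR relative to CL4-TCR, St3gal6 stayed the 1 gene lower and 0 were higher in all 7. In Villin-HA + CL4-TCR relative to CL4-TCR, the 3 higher became 0 under the higher floor (65th percentile), 1 without probe sets named _s_at, _x_at or _a_at (St3gal2), 1 by the second brightest probe set (St8sia4) and 2 under median scaling, quantile normalization and log2(signal + 16), each without St3gal4, and the 2 lower became 0 by the second brightest probe set and 0 by the median over probe sets. In VILLIN-HA/CL4-TCR relative to Villin-HA + CL4-TCR, the 1 higher became 2 with arrays scaled to the same median and 0 by the median over probe sets, and by the second brightest probe set the 1 was St3gal1 in place of St6gal1. The 4 lower became 0 with the higher floor and 2 under each of median scaling, quantile normalization, the leaving out of those probe sets and the second brightest probe set, and 3, without St3gal2, with log2(signal + 16) and the median over probe sets. The higher floor fixed its counts of 0, because none of those genes had a signal in Villin-HA + CL4-TCR cells 2-fold above it. Of the differences past 2-fold, those of St6gal1 changed sign by its second probe set, to at least 0.36 for Villin-HA + CL4-TCR relative to CL4-TCR and -0.36 for VILLIN-HA/CL4-TCR relative to Villin-HA + CL4-TCR. Of 122 single differences under an alternative, 92 moved by less than the pooled SD of probe sets. Sign changed in 14, in 10 of them by more than that SD: besides St6gal1 these were St8sia4 and St3gal1 by the second brightest probe set or the median, St8sia4 reaching 2.39 for Villin-HA + CL4-TCR relative to CL4-TCR. The cause was not tested where a higher floor or another probe set does not itself give it. Median scaling moved the share of higher among all counted genes to 38.3% for Villin-HA + CL4-TCR relative to CL4-TCR, from 55.6%, and to 67.1% for VILLIN-HA/CL4-TCR relative to Villin-HA + CL4-TCR, from 40.7%, with medians of all genes of -0.14 and 0.19. No paired analysis was possible because each group has 1 array, and no array could be left out for the same reason. Signals near the floor of 31.7 limit St3gal2, St3gal4 and Gcnt1.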
